A study of Phaseolus coccineus with 4 samples.

Results

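Fatty acid desaturases set how unsaturated plant membrane and storage lipids are, and DGD1 makes digalactosyldiacylglycerol, a main lipid of plastid membranes. FAD2 and FAD3 work in succession in the endoplasmic reticulum, where FAD2 turns oleate into linoleate and FAD3 turns linoleate into linolenate. FAD6 carries out the FAD2 step inside the plastid. DGD1 works at the plastid envelope, where it adds a second galactose to the monogalactolipid made by MGD1. In soybean, FAD2-1 genes act in the developing seed and FAD3 genes set the linolenate content of the seed oil.

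The genes were chosen by symbol in the annotation of the array: every probe set whose only gene symbol starts with FAD2, FAD3 or FAD6, or is DGD1. This gave 7 genes, FAD2-1A, FAD2-2, FAD2-3, FAD3B, FAD3C, FAD6.1 and DGD1, read by 11 of the 37593 soybean probe sets. The group was picked with the differences between suspensor and embryo proper on these arrays known, that of FAD3C above all, so those differences are given below as a description and support no claim about the genes. Gene positions were not used here, and no probe or gene sequence was at hand to print.

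The arrays compared suspensor and embryo proper of globular embryos of scarlet runner bean (Phaseolus coccineus, cultivar Hammond's Dwarf Red Flower) at 6 days after hand pollination. The embryo proper forms the plant body, and the suspensor is the stalk that anchors and feeds it. Each region had 2 samples, cut by laser from sections of fixed seeds of the same age and growth conditions. They are labelled biological replicates, but nothing says whether different plants or how many embryos went into each, so any p-value measures only the spread between these samples. The amplified RNA was hybridised to Affymetrix soybean arrays, and a bean transcript that matches a soybean probe poorly gives little signal, so a dim probe set does not show a low transcript level. In such tissue samples, fewer cells of a type and less RNA per cell cannot be told apart.

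A probe set counted as above background when its intensity exceeded the 95th percentile of the array's non-plant probe sets, those for Phytophthora and for a nematode, which lay between 873 and 1034 on the 4 arrays. Between 7328 and 8742 soybean probe sets were above it per array, and the number of arrays limits the precision. Input RNA was lower for embryo proper, at 60 and 75 ng, than for suspensor, at 106 and 137 ng. The 18 hybridisation spikes also had lower median signals in embryo proper, 46706 and 58957, than in suspensor, 97327 and 159448, a log2 difference of 1.25 between regions. Markers could not check the tissue labels: GA20OX3, a gibberellin synthesis gene, for suspensor and LEC1-A, a seed transcription factor, for embryo proper were below background on all 4 arrays, and no symbol matched the markers of seed coat, endosperm or vascular tissue.

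FAD3C was far above background on all 4 arrays, and its signal was higher in suspensor than in embryo proper. Transcript signals of FAD2-3 and of DGD1, each by 1 probe set, also lay higher in both suspensor samples, and FAD2-2 lay slightly higher. A dimmer DGD1 probe set, near background, had a log2 difference of -0.01. The log2 differences of the brighter DGD1 probe set, 1.63, and of FAD2-2, 0.62, lie beside the 1.25 of the hybridisation spikes. The part of that spike difference in them was not tested. FAD6.1 was close to background with overlapping regions, and FAD3B and FAD2-1A were below background on all 4 arrays.

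FAD3C, an omega-3 desaturase of the endoplasmic reticulum that makes linolenate, was read by Gma.8463.1.S1_at at 14368 and 15036 in embryo proper and at 95394 and 52950 in suspensor. All 4 signals were far above background, from 16.3 and 17.2 times its level in embryo proper to 103 and 51.2 times in suspensor. The regions did not overlap, and the lower suspensor signal was 3.52 times the higher embryo proper signal. The embryo proper samples were almost equal, 0.07 apart on the log2 scale, whereas the suspensor samples were 0.85 apart, against medians over all tested probe sets of 0.36 in embryo proper and 0.56 in suspensor. The suspensor mean was 74200 ± 30000 (SD, n = 2), and the embryo proper mean was 14700 ± 473 (SD, n = 2). The log2 difference of 2.27 ranked 163 from the top of 8972 tested probe sets. It lies beside the 1.25 by which the hybridisation spikes differed in the same direction, and the part of that difference in the FAD3C result was not tested.

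FAD3C had a further probe set, GmaAffx.14376.1.S1_at, which was below background on all 4 arrays, at 293 and 574 in suspensor against 559 and 254 in embryo proper. It gives no second reading of the gene. FAD3B, another soybean FAD3 gene with the same enzyme activity, gave 119 and 92 in suspensor against 639 and 485 in embryo proper. These FAD3B signals run opposite to FAD3C without overlap, but all lie at or under 0.725 times the background level, so no fold is given.

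FAD2-2 encodes an oleate desaturase, which makes the substrate of FAD3. Its probe set Gma.5046.1.S1_s_at read 5926 and 5504 in suspensor against 3896 and 3540 in embryo proper. Both suspensor samples were above both embryo proper samples, by a factor of 1.41 between the nearest. The suspensor mean was 5720 ± 298 (SD, n = 2) against 3720 ± 251 (SD, n = 2), a 1.54-fold difference. Of all tested probe sets, 16.7% had a higher difference. The other FAD2-2 probe set, GmaAffx.90006.1.A1_at, lay between 83 and 183 on the 4 arrays, below background on each.

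FAD2-3, a further oleate desaturase, was detected in suspensor alone. GmaAffx.93278.1.S1_s_at read 372 and 188 in embryo proper, both below background, and 1779 and 1599 in suspensor, at 1.92 and 1.55 times the background level. Taking each embryo proper array at the lowest soybean signal above its background gives a lower bound of 1.91-fold toward suspensor. This bound rests on the scaling as deposited. On the log2 scale it is 0.93, beside the 1.25 by which the hybridisation spikes differed in the same direction. The part of that spike difference in the FAD2-3 result was not tested, and the probe set was not called (limma adjusted p = 0.1). Since FAD2-3 entered the tested set through its suspensor signals, a difference of this sign was built into its selection. The probe sets of FAD2-2 and FAD2-3 that gave signal carry the suffix for shared probes. They may each read more than 1 transcript, so the levels of these paralogs are uncertain. The suffix refers to soybean sequences, so a probe set without it may also read more than 1 bean transcript. Gene names here are those of the soybean annotation, and no bean gene was matched to them.

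FAD2-1A, the desaturase of soybean seed oil, was below background on all 4 arrays by both of its probe sets. Gma.1839.1.S1_at stood at 79 and 92 in embryo proper and at 698 and 555 in suspensor, at most 0.755 times the background level. Gma.1839.2.S1_a_at stood at 107 and 110 in embryo proper and at 56 and 137 in suspensor. The regions were apart in the first and overlapped in the second, and with both regions below background neither gives a fold.

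**Figure D1:**
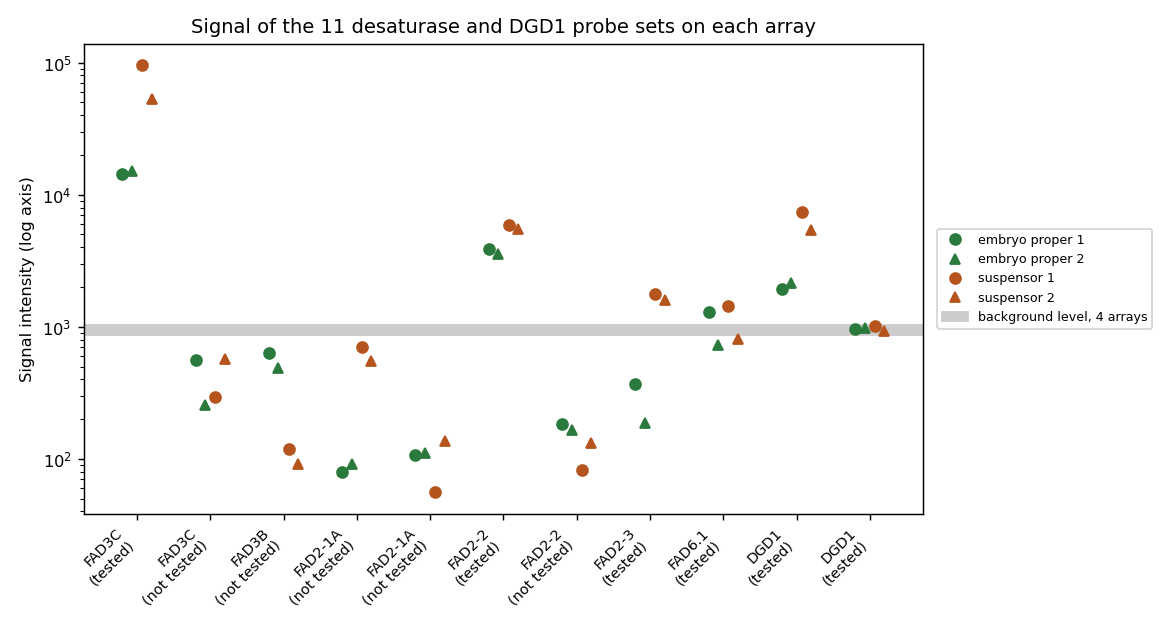
Signal intensity on a log axis for each of the 11 probe sets on embryo proper arrays (green) and suspensor arrays (orange), with circles for replicate 1, triangles for replicate 2 and a grey band for the background levels of 873 to 1034. FAD3C stands at 14368 to 95394, well above the band, and 5 probe sets lie wholly under it.

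The plastid genes of the group were FAD6.1 and DGD1. FAD6.1, the plastid oleate desaturase, read 1439 and 813 in suspensor against 1284 and 732 in embryo proper by Gma.49.1.S1_at. Replicate 1 of each region was above background and replicate 2 of each region was below it, so the regions overlapped. The replicates were 0.8 apart on the log2 scale in embryo proper and 0.81 in suspensor, both wider than the log2 difference of 0.16 between regions. That difference was -0.01 when arrays were centred on the non-plant probe sets and ran from -0.25 to 0.56 when 1 array was left out, so no direction is given for FAD6.1.

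DGD1, the galactolipid synthase, was above background on all 4 arrays by GmaAffx.3897.1.S1_at. Suspensor samples read 7440 and 5415 and embryo proper samples read 1946 and 2132. The regions were apart, with the lower suspensor sample at 2.54 times the higher embryo proper sample. The suspensor mean was 6430 ± 1430 (SD, n = 2) and the embryo proper mean was 2040 ± 131 (SD, n = 2). The fold from the mean log2 signals was 3.1. The log2 difference of 1.63 ranked 343 from the top of all tested probe sets, and it was not called (limma adjusted p = 0.055).

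The other DGD1 probe set, GmaAffx.90701.1.S1_at, was near background. It stood at 965 and 976 in embryo proper and at 1010 and 922 in suspensor, between 0.892 and 1.12 times the background level. The regions overlapped, and the log2 difference was -0.01, with -0.17 and 0.11 under the centrings on the non-plant and on the tested probe sets. So close to background it gives no usable second reading of DGD1. Neither DGD1 probe set carries the suffix for shared probes, which does not show that each reads only 1 bean transcript.

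The differences were set against a limma fit over all 8972 soybean probe sets that were above background on at least 2 of the 4 arrays, with Benjamini-Hochberg adjustment. Of the 11 probe sets, 6 were tested, from 5 genes, and the other 5 were below background on all 4 arrays. At an adjusted p under 0.05, 1 of the 6 was called higher in suspensor, that of FAD3C, where 0.892% of all tested probe sets were called, and 0 were called lower, where 1.86% were. At an unadjusted p under 0.05 the counts were 3 higher and 0 lower, where 6.55% and 13.5% of all tested probe sets were. Both suspensor samples exceeded both embryo proper samples in 4 of the 6, those of FAD3C, FAD2-2, FAD2-3 and the brighter DGD1 probe set, against 19.8% of all tested probe sets. The reverse order was seen in 0 of the 6, against 33.4%. The median log2 difference of the 6 was 1.13, or 0.78 with FAD2-3 at its bound, against -0.18 over all tested probe sets. Nothing is read from these counts, because the genes were picked with this contrast known and FAD2-3 passed the filter through suspensor alone.

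The calls depended on the setting. FAD3C was called in 11 of 15 other settings, and was not called without embryo proper replicate 1 or 2, without a variance trend, or with arrays centred on the non-plant probe sets. The brighter DGD1 probe set was called in 7 of 15 settings, among them both that left out a suspensor array. FAD2-2, FAD2-3, FAD6.1 and the dimmer DGD1 probe set were called in 0 of the settings in which they were tested.

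**Figure D2:**
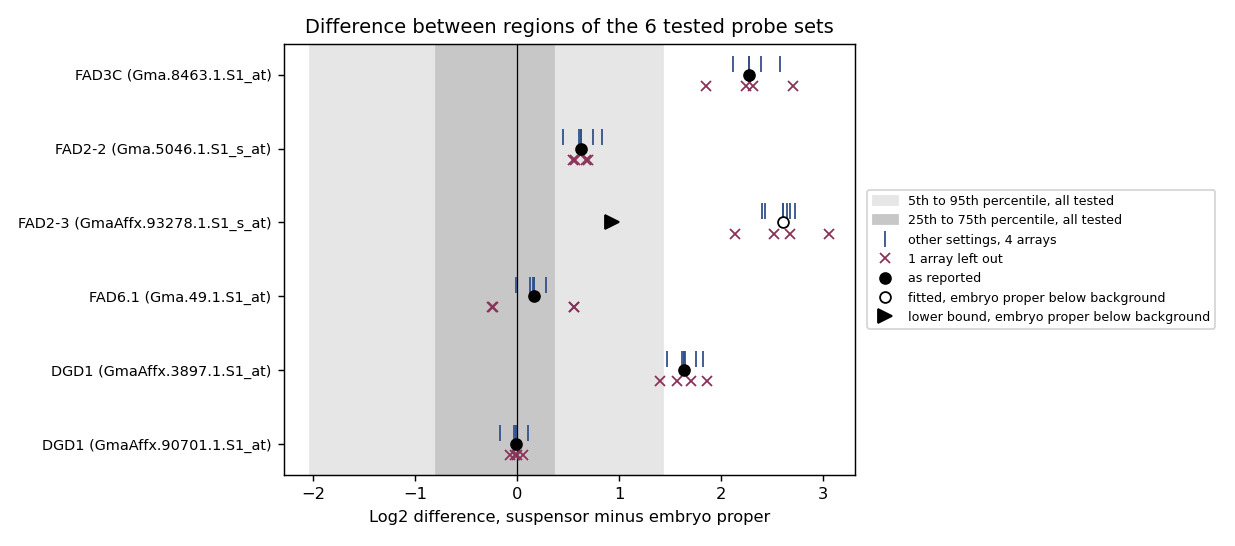
Log2 difference, suspensor minus embryo proper, of the 6 tested probe sets, as reported (black points), under other settings with all 4 arrays (blue ticks) and with 1 array left out (crosses); the grey bands span the 5th to 95th and the 25th to 75th percentile of all tested probe sets, -2.03 to 1.43 and -0.8 to 0.36. As reported, FAD3C at 2.27 and the brighter DGD1 probe set at 1.63 lie above the outer band. FAD2-3, with embryo proper below background, has a lower bound of 0.93 (triangle), inside that band, beside its fitted value (open circle), and FAD6.1 and the dimmer DGD1 probe set lie near 0.

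Genes of neighbouring lipid steps were mostly below background. A list of 28 further lipid genes, on 50 probe sets, was taken by symbol, and 5 of the probe sets, from 4 genes, were tested. Of these 5, limma called 0 higher and 1 lower in suspensor, against 0.892% and 1.86% of all tested probe sets. At an unadjusted p under 0.05 the counts were 0 higher and 2 lower, both of them probe sets of VLXB, against 6.55% and 13.5%. The median log2 difference of the 5 was -0.97, against -0.18 over all tested probe sets. Both VLXB probe sets and that of AOC6 passed the filter through embryo proper, which favours lower values in suspensor. Nothing is read from these counts or from this median.

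Among the galactolipid genes, MGD1, which makes the substrate of DGD1, was above background on all 4 arrays, with 2228 and 2503 for suspensor against 2472 and 1942 for embryo proper. Its regions overlapped, with a log2 difference of 0.11, or -0.06 with arrays centred on the non-plant probe sets. DGD2, a second digalactolipid synthase, was below background on all 4 arrays by each of its 4 probe sets. Whether DGD1 and MGD1 differ in their response to region was not tested.

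The plastid omega-3 desaturases, which make linolenate inside the plastid, gave little signal. FAD7-2 read 1152 and 759 in suspensor against 209 and 374 in embryo proper, above background on 1 suspensor array only, and was not tested. FAD8.2 was below background on all 4 arrays by its 3 probe sets. SACPD-C and SAD2, stearoyl desaturases that supply oleate, were below background as well.

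In plastid fatty acid synthesis, KASII-A, which elongates palmitate to stearate, read 1006 and 1036 in suspensor against 1602 and 1445 in embryo proper by its brighter probe set. Its regions did not overlap and its log2 difference of -0.57 was not called. The suspensor signals lay at the background level, at 1.09 and 1 times it, so the size of this difference is uncertain. The other 7 probe sets of that step, for acetyl-CoA carboxylase subunits and KASII-A, were below background on all 4 arrays. So were DGAT1A, which completes triacylglycerol, and WRI1B, a transcription factor of seed oil synthesis.

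Lipoxygenases and allene oxide enzymes consume polyunsaturated fatty acids, the products of FAD2 and FAD3. VLXB, a lipoxygenase, read 1127 in suspensor replicate 1 and 805, under background, in replicate 2, against 4940 and 5431 in embryo proper. It fell by 2.42 on the log2 scale in suspensor (limma adjusted p = 0.022), the direction opposite to FAD3C, and the call was lost without embryo proper replicate 1 or 2 (adjusted p = 0.15 and 0.19) and without a variance trend (0.066). This VLXB probe set passed the filter through its embryo proper signals, which favours a difference of this sign, and it was not tested when detection on all 4 arrays was required. A further VLXB probe set read 1346 and 600 in suspensor against 3059 and 4217 in embryo proper, without overlap, and was not called. AOC6, an allene oxide cyclase of the jasmonate route, read 437 and 1892 in suspensor against 2459 and 1322 in embryo proper, with overlapping regions. AOS1, another allene oxide enzyme, read 648 and 1150 in suspensor against 237 and 533 in embryo proper by 1 probe set. These regions were apart in the direction of FAD3C, but only suspensor replicate 2 was above background, and the probe set was not tested. The other AOS1 probe sets were below background on all 4 arrays. AOS2 read 514 and 681 in suspensor against 1096 and 303 in embryo proper, with overlapping regions, and was not tested. Of the 29 probe sets of this step, 24 were below background on all 4 arrays.

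**Figure D3:**
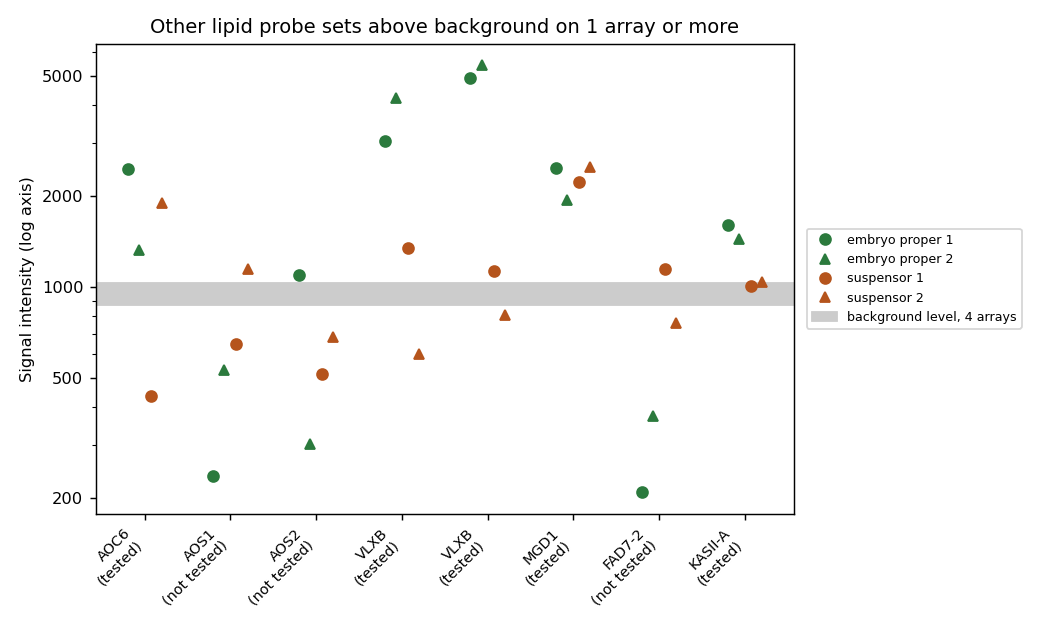
Signal intensity on a log axis for the 8 probe sets of other lipid genes that were above background on at least 1 array, with colours, symbols and grey background band as for the desaturases. VLXB lies higher in embryo proper by both of its probe sets, which are not taken as independent readings, and MGD1 stands between 1942 and 2503 in all 4 samples.

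The genes whose pattern over the 4 arrays was nearest to that of FAD3C were sought among 422 tested probe sets of 337 other genes with a symbol that is not a placeholder. Nearness was the root mean square difference of log2 signals after taking out each probe set's own mean. ALDH5F2, an aldehyde dehydrogenase, was nearest at 0.24, and MIPS4, a myo-inositol-phosphate synthase, followed at 0.25. DHAR3, a dehydroascorbate reductase, stood at 0.26, GASA14, of a gibberellin-regulated peptide family, at 0.31 and SS, a sucrose synthase, at 0.33, where the median over all candidates was 1.27. DHAR3 had the wide suspensor gap of FAD3C, with 37913 and 15954 in suspensor and 6687 and 7074 in embryo proper. In ALDH5F2 the suspensor samples lay closer together, at 30169 and 26394, above 5274 and 6400 in embryo proper. The choice by nearness to FAD3C fixes that these genes share its order of regions, and MIPS4 was below background on embryo proper replicate 2.

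**Figure D4:**
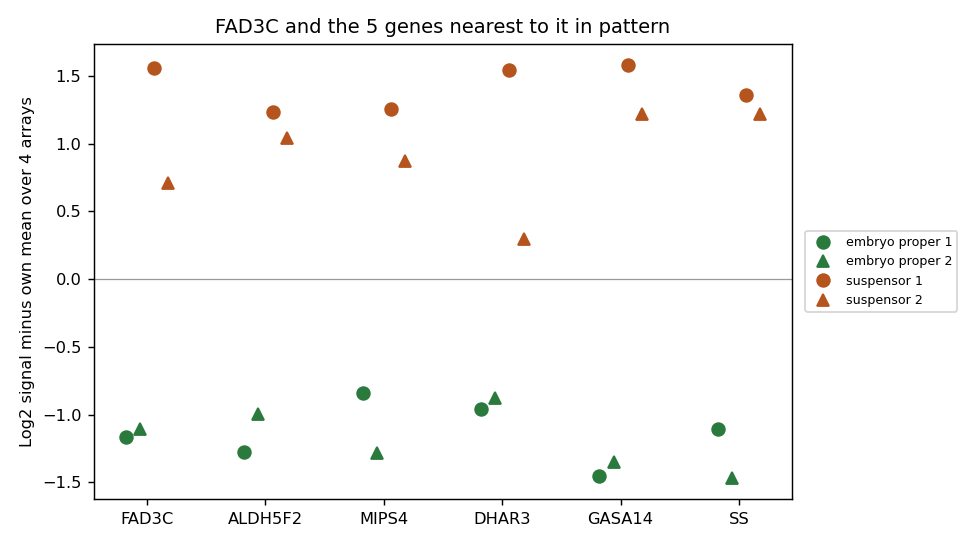
Log2 signal minus each probe set's own mean over the 4 arrays, for FAD3C and the 5 genes nearest to it, with embryo proper in green, suspensor in orange, circles for replicate 1 and triangles for replicate 2. Both suspensor samples lie above both embryo proper samples in all 6, as the choice of genes by this pattern fixes, and suspensor replicates of FAD3C and DHAR3 are the widest apart, at 0.85 and 1.25.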

How the data were processed

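Intensities of 4 arrays, 2 per region, were used on the linear scale on which the authors deposited them, with 1 value per probe set. The submitters' processing notes name GCOS 1.3, and its summary algorithm is not given in the sources used here. After trimming 2% of probe sets from either end, the mean of each array was 500. Per the labels, about 200 ng of amplified cDNA was labelled for each array. Amplification from small inputs favours 3' ends.

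Values were taken as log2(intensity + 16), and folds are on that scale, which understates changes of dim probe sets. The regions were compared with limma 3.58.1 in R 4.3.3 (lmFit, eBayes with a variance trend, Benjamini-Hochberg), and the fit was tested on simulated data. Symbols came from the platform annotation. HAD1, a phosphatase, was taken out of the lipid list. Named are all chosen genes, lipid genes of each step and the 5 genes nearest to FAD3C. The members and lists were chosen with earlier results of these data known. Alternatives covered pseudocount, scaling, background, filter, shared probes, variance trend, replicate block and each array left out.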

Additional observations from a re-analysis of the deposited data

How the results depend on the processing

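Over all tested probe sets, 80 were called higher and 167 lower in suspensor as reported. Quantile normalization gave 198 and 239, centring arrays on the tested probe sets 129 and 196, and centring on the non-plant probe sets 48 and 154. A background at the 99th percentile gave 134 and 293, detection required on all 4 arrays 192 and 334, leaving out shared probes 35 and 71, a fit with no variance trend 21 and 66, and the replicate block 138 and 292. With 1 array left out the counts ran from 3 to 153 and from 3 to 1054, where the spread came from the other region alone; the remaining array is taken to vary as that region does. Stricter filters test fewer probe sets, and for the other settings the cause was not tested. The median log2 difference, -0.18, was -0.062 and -0.35 under these centrings.

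Of the desaturase and DGD1 probe sets, 1 was called higher as reported. This became 2, FAD3C and DGD1, after quantile normalization, with centring on the tested probe sets, with either stricter background filter and with the replicate block, and 0 with non-plant centring and without a variance trend. It ran from 0 to 2 with 1 array left out: 0 without either embryo proper array and 2 without either suspensor array. In 15 of 15 settings 0 were called lower. The log2 difference of FAD3C ran from 1.85 to 2.7 and that of the brighter DGD1 probe set from 1.4 to 1.86. Pooled over tested probe sets, arrays with the same number showed no shared deviation (correlation of -0.0242), which does not settle it for single genes. On the log2 scale, replicate 1 of FAD6.1 deviated from its region mean by 0.4 in embryo proper and 0.41 in suspensor. For the brighter DGD1 probe set these were -0.07 and 0.23. The labels give the numbers no meaning, and the arrays were not treated as paired. Signal over background limits the rest: 5 of the 11 probe sets were above it on no array.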
